A study of Mus musculus with 9 samples.

Results

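The cytosolic ribosomal protein genes were examined in mouse retina at P17. They were taken by name, as the protein coding genes whose symbols are Rpl or Rps with a number and at most a closing a, x, l or al, together with Rplp0, Rplp1, Rplp2 and Rpsa. This gave 81 of the 54532 genes in the count table, of which 22046 were protein coding. By subunit, 47 belonged to the large subunit, 31 to the small subunit and 3 to the stalk of the large subunit. In all, 78 genes passed the filter on low counts and were tested among 17540 genes, and the 3 that did not were Rpl36al, Rpl39l and Rpl10l.

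RNA came from retinas of wild-type C57BL/6 mice, with 3 mice in each of 3 groups, and transcripts were counted per gene. Control mice were raised in room air and are labelled as having received DMSO, the vehicle. OIR (oxygen-induced retinopathy) mice were raised in high oxygen as pups, which prunes the retinal vessels, were brought back to room air at P12, and are labelled as hypoxic with DMSO. They received 1 intraocular injection of this vehicle at P12, and are called untreated below in the sense of no 32-134D. OIR+32-134D mice went through the same oxygen change and received 1 intraocular injection of 32-134D, which blocks HIF-1 and HIF-2, the factors that switch on genes in low oxygen, at P12, with a dose labelled 70 ng in one field and as a concentration in another. Mice keep the numbers of their labels, and each is a separate animal. In RNA from whole retina, fewer cells of a type and less RNA per cell cannot be told apart.

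A ribosome is built of ribosomal RNA and a large set of proteins in fixed proportion, with a small subunit that decodes the message and a large subunit that joins amino acids. The messages for these proteins are among the most abundant in any cell, and most begin with an unbroken run of pyrimidines at the first bases of the transcript, the terminal oligopyrimidine (TOP) tract, through which the growth kinase mTOR and the binding protein Larp1 govern how well they are translated. Nearly all are required in every cell, a few have close relatives with restricted expression, and the mouse genome carries many intronless copies of them that are annotated as pseudogenes.

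The pyrimidine run is a sequence feature that the choice of genes by name did not use, and it is shown here for members from each part of the ribosome that recur below. RefSeq start sites on GRCm38.p6 were found for 61 of the 81 genes. Each line gives 10 bases before and 18 bases from the start onward, written on the strand of the gene, with the run in capitals. Lines were drawn only from starts with a run inside these bases, so they do not show how common it is. In each line the run begins before or after the annotated start, whereas a TOP tract lies at the first bases of the transcript.
Rplp2, chr7:141447641-141447668, plus strand: cagcgtCTTCCTTTCgccgccggacgcc
Rpl14, chr9:120571507-120571534, plus strand: ggCCCTCTCTCTTCTCgctgagcgccgc
Rpl28, chr7:4792955-4792982, plus strand: tctcgtgtCTCTCTTTCCgtctccggcc
Rpl13a, chr7:45128728-45128755, minus strand: cctgcgacaagaCCTCCTCCTTTCCCag
Rpl35, chr2:39005114-39005141, minus strand: ccgCCCTTTCCTCTTTCTCTCgaaccag
Rpl39, chrX:37085205-37085232, minus strand: gctccgcctctagcgaCTTCTTCTaatc
Rps6, chr4:86857350-86857377, minus strand: gaagtcgggCCTCTTTTTCgtgacgcct
Rps10, chr17:27635227-27635254, minus strand: gcgcacgCCCCTTCCTTTCCagcctccg

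A run was counted where a C was followed by at least 7 more C or T between 30 bases before and 50 bases after the start. It was present in 49 of the 61 matched ribosomal protein genes, or 80.3%, and in 4338 of 16497 genes with a RefSeq start, or 26.3%. A run so counted need not lie at the first bases of the transcript, so these shares are not those of TOP tracts. The motif CCGGAAGT, searched on both strands over 250 bases before to 50 after the start, was present in 19.7% of the ribosomal protein genes and 5.93% of all genes. AAGATGGC was present in 8.20% and 3.64%, and TATAAA in 9.84% and 14.3%. The run was present both in Rpl13a, whose fold change in treated mice was the lowest of the set, and in Rps6, whose values stayed close to 0.

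Total counts ranged from 16028731 to 27213184 per mouse. Rod photoreceptor markers summed to 33622 to 63602 CPM, counts scaled to a common library size, in every mouse, and none of the 12 marker lists of retinal and neighbouring cell types was at 0 in any mouse. OIR+32-134D mouse 2 stood apart. Crystallins, the structural proteins of the lens, took 15.8% of its counts and at most 0.184% in any other mouse, its 3 Müller glia markers summed to 1497 CPM against 2721 to 3802 elsewhere, and its 4 ganglion cell markers to 26.0 CPM against 59.2 to 823. Results that rest on this mouse are given with and without it.

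Ribosomal protein messages took up close to 1.8% of all counts in each group. Control mice 1, 6 and 7 had shares of 1.97%, 1.61% and 1.85%, OIR mice 3, 5 and 6 had 1.77%, 1.77% and 1.89%, and OIR+32-134D mice 2, 5 and 10 had 1.97%, 1.85% and 1.59%. The groups overlapped throughout, with means of 1.81% ± 0.183, 1.81% ± 0.0652 and 1.80% ± 0.194 (SD, n = 3). Counting error is small at this depth, with a 95% Wilson interval of 1.96% to 1.98% in OIR+32-134D mouse 2, and covers counting error only. With crystallins left out of the total, the share in that mouse was 2.34% and no other mouse moved above 1.97%. Counts of the copies named after these genes added 0.0754 to 0.0936 percentage points per mouse.

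The genes moved up and down together from mouse to mouse more than they differed between groups. Averaged over the 78 tested genes, control mice 1, 6 and 7 had a log2 CPM of 7.40, 7.15 and 7.47, OIR mice 3, 5 and 6 had 7.30, 7.29 and 7.35, and OIR+32-134D mice 2, 5 and 10 had 7.71, 7.35 and 7.10. OIR+32-134D mice held both the highest and the lowest value of the study. OIR+32-134D mouse 2 was the highest of the 9 mice for 59 of the 78 genes and lay above the gene's own mean for 76. OIR+32-134D mouse 10 was the lowest for 54 genes and lay below the mean for 75, and control mouse 6 was the lowest for 18 and lay below the mean for 73. The spread of the average over mice was 0.61 on the log2 scale within OIR+32-134D, 0.33 within control and 0.07 within OIR, and 2.96% of its variation lay between groups. All these values rest on TMM scaling, whose factor was 0.852 for OIR+32-134D mouse 2 and 0.921 to 1.06 for the others. As a share of total counts, that mouse had 1.97%, as did control mouse 1.

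**Figure D1:**
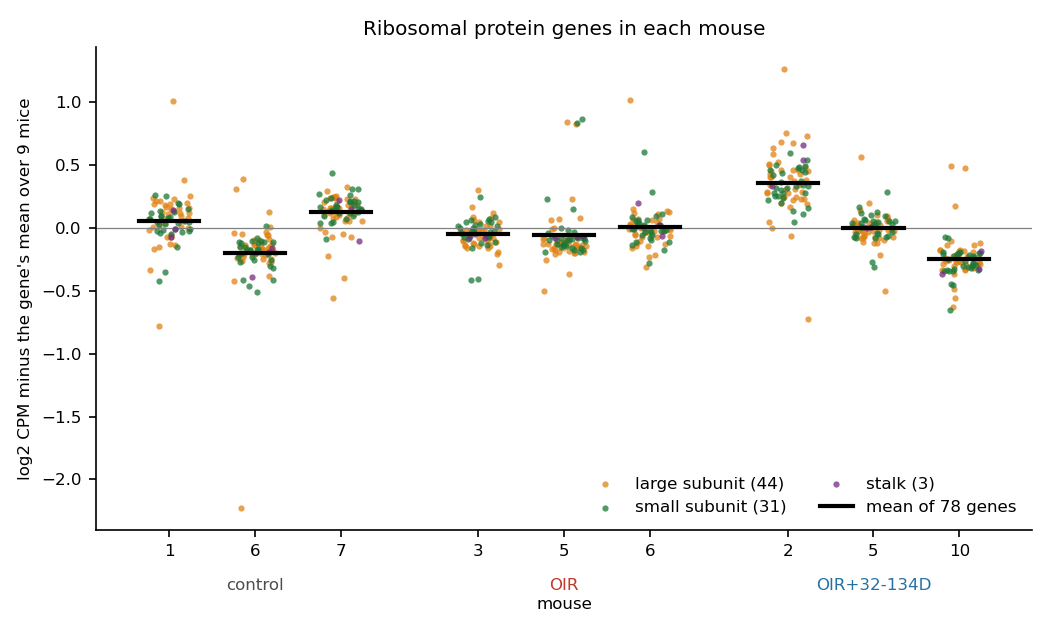
Each point is 1 of 78 ribosomal protein genes in 1 mouse, as its log2 CPM minus its own mean over 9 mice, with mice on the horizontal axis by group and colours for the subunit. Black bars mark the mean of the 78 genes, which lay at 0.36 in OIR+32-134D mouse 2, -0.25 in OIR+32-134D mouse 10 and between -0.20 and 0.13 in the other mice, with Rpl3l in control mouse 6 as the single point below -2.

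Both subunits and the stalk shared this movement. Relative to their own means, the large subunit genes lay 0.37 higher on the log2 scale in OIR+32-134D mouse 2, the small subunit genes 0.34 higher and the stalk genes 0.51 higher, and in OIR+32-134D mouse 10 the 3 values were -0.22, -0.28 and -0.29. In control mouse 6 they were -0.19, -0.21 and -0.25. A single shift per mouse held 44.3% of the variation of the 78 genes over mice, and 61.7% of that of the 75 genes other than Rpl3l, Rpl24 and Rps10. Around that shift the median gene varied with an SD of 0.10 on the log2 scale, and 62 of the 78 genes stayed under 0.15. These shares describe the same 9 mice that the fold changes come from.

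Genes that work with the ribosome moved with it to different degrees. The 16 other messages with a TOP tract that were listed, among them Tpt1, Npm1, Pabpc1 and the elongation factors Eef1a1 and Eef2, lay at 0.27 in OIR+32-134D mouse 2 and -0.17 in mouse 10 on the same scale. The 7 tested host genes of small nucleolar RNAs, such as Gas5, whose spliced transcripts also begin with such a tract, lay at 0.41 and -0.28. The 28 initiation factors lay at 0.25 and -0.09, whereas the 77 mitochondrial ribosomal protein genes, which make a separate ribosome, lay at 0.04 and -0.15 and were highest in control mouse 7 at 0.21. The 10 p53 targets that were listed lay at 0.57 and -0.36, and the 6 transcription factors of ribosome genes at 0.33 and -0.02. Ribosome biogenesis factors lay at 0.12 and -0.125, and RNA polymerase I genes at 0.06 and -0.06. A shift upward in mouse 2 was thus not particular to TOP messages or to genes of translation. Short genes as a class also shifted between mice. The median of all 1347 tested genes under 1000 bases lay at 0.08 in OIR+32-134D mouse 2, -0.09 in mouse 10 and -0.03 in control mouse 6, where the median ribosomal protein gene lay at 0.34, -0.26 and -0.17. In control mice 1 and 7 the short genes lay at 0.11 and 0.13 and the ribosomal protein genes at 0.06 and 0.15. The median annotated length was 1754 bases for the ribosomal protein genes and 3905 for all tested genes. The part of gene length and of lens RNA in the shared shift was not tested.

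Levels differed far more between ribosomal protein genes than between mice. Per length, as CPM per kilobase (RPKM), averaged over 9 mice, Rplp1 of the stalk was highest at 930, with a range over mice of 733 to 1163, followed by Rps15 of the small subunit head at 547 and Rpl36 of the large subunit at 430. Rpl41, the shortest ribosomal protein, stood at 367, Rplp0 at 316, Rps6, the target of the S6 kinases, at 241, Rpsa at 142 and Rplp2 at 101. Rpl36, Rpl41 and Rpl8 followed each other at 430, 367 and 357 with ranges over mice that overlapped. This order rests on the deposited gene length, which can exceed the length of a transcript. Rplp1 has 499 bases in both, while Rplp2 has 2072 bases as a gene and 964 as a transcript. In CPM, without length, Rplp1 ran from 366 to 581 over mice, Rplp2 from 160 to 301 and Rpl3 from 505 to 657. At the low end of the tested genes stood Rps10 at 1.34, Rpl24 at 0.931 and Rpl3l at 0.280. Most of the lowest values belonged to genes whose annotation overlaps that of another gene.

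**Figure D2:**
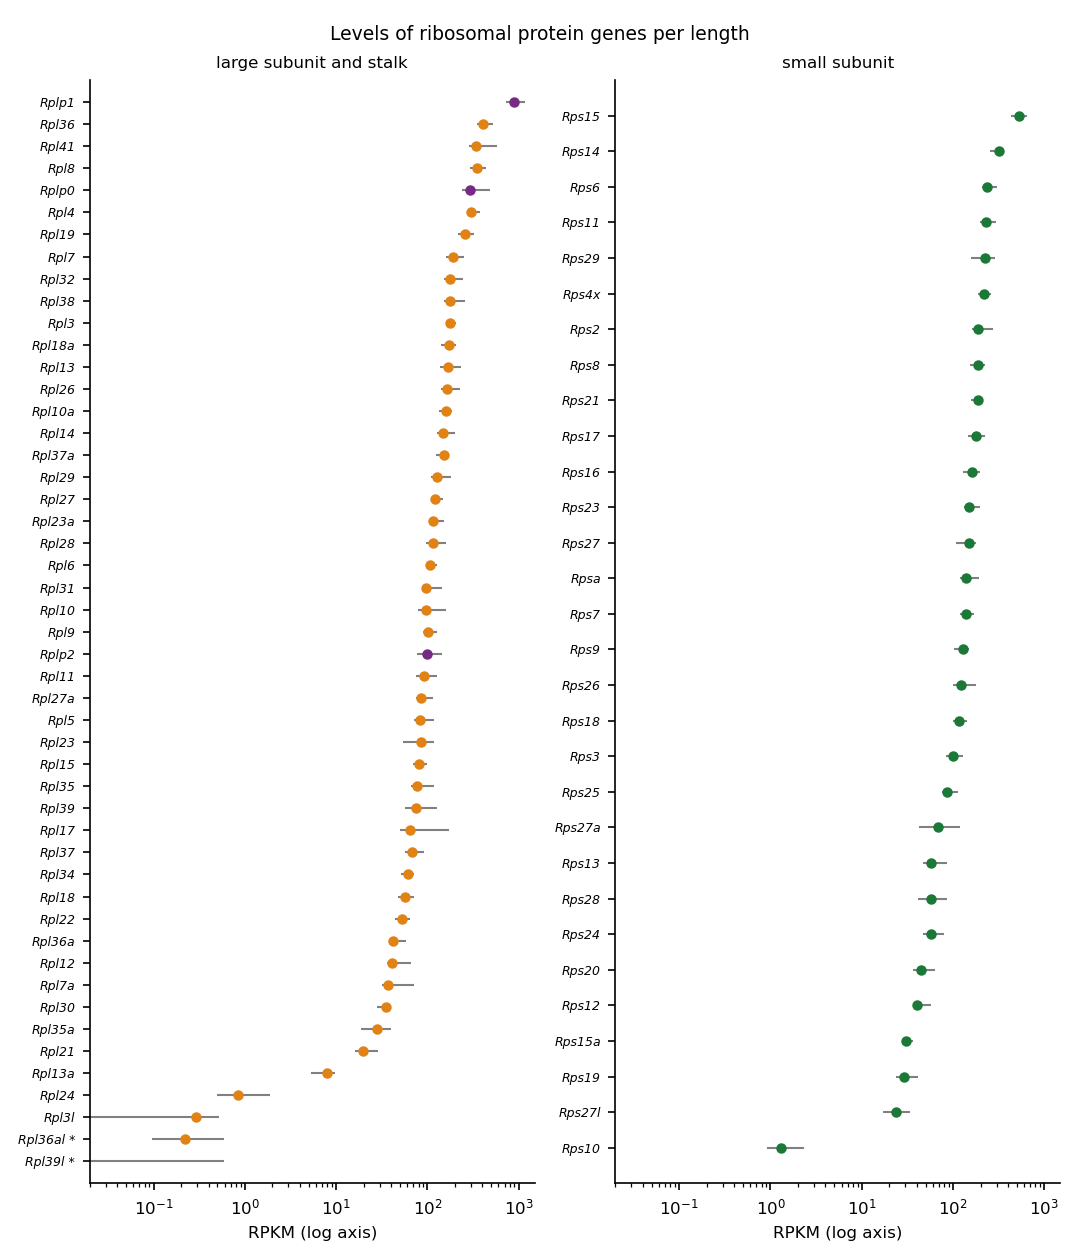
RPKM of the ribosomal protein genes on a log axis, 1 small subunit gene not shown, with large subunit and stalk genes on the left and small subunit genes on the right; dots give the median of 9 mice, purple for the stalk, and lines run from the lowest to the highest mouse. Rplp1 lies highest at 930 on average, followed by Rps15 at 547, and Rpl13a, Rps10, Rpl24, Rpl3l and the genes marked with an asterisk, which did not pass the filter, lie below 10; a line that meets the left edge reaches 0, Rpl39l has a median of 0 and no dot, and Rpl10l, at 0 in every mouse, is left out.

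Of the low genes, 4 share their exons with a longer gene on the same strand. In GENCODE M21, Gm28037 covers 47.0% of the exon bases of Rpl24, Gm45713 covers 29.4% of those of Rpl13a, Gm49383 covers 24.5% of those of Rpl36al, and RPS10-NUDT3 covers 20.6% of those of Rps10. These were the only 4 ribosomal protein genes with more than 20% of their exon bases covered on the same strand, and the overlapping gene had 0 counts in all 9 mice in each case. They ranked 77, 75, 79 and 76 of 81 by mean RPKM. The next highest cover was 3.5%, in Rpl19, which ranked 9. Among genes without such cover, only Rpl3l, Rpl39l and Rpl10l, all relatives of other members, were as low, and the lowest of the rest was Rpl21 at 21.4 RPKM. How the counting treated reads in shared exons is not given in the sources used here, so the levels of these 4 genes are uncertain, and the part of the overlap in them was not tested.

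The first comparison set OIR mice against control mice, which differ by the whole course of OIR and not by its ischaemic phase alone. No ribosomal protein gene changed at an adjusted p below 0.05 by edgeR, where 0.941% of all tested genes did and 0.302% did with a change above 1 on the log2 scale, and the numbers were 0 by DESeq2, against 11.3% of all genes, and 1 by limma-voom, Rpl3l, against 13.1%. At an unadjusted p below 0.05, 1 of 78 passed by edgeR, Rpl3l, where 23.8% of all genes did. Rpl3l had 0 to 19 counts per mouse and did not pass the filter with OIR and control mice alone, so its calls here are a description. The fold changes were small, with a median of -0.07 on the log2 scale against 0.03 for all genes, 15 above 0 and 63 below, and 75 of 78 within 0.3. Of all genes, 53.5% lay above 0, 46.5% below and 9195 of 17540 within 0.3. The median was -0.09 for the large subunit, -0.06 for the small subunit and -0.03 for the stalk. With scaling by total counts alone, the median was 0.00 with 38 genes above 0 and 40 below, while the median of all genes moved to 0.10, so that the ribosomal protein genes lay 0.10 below all genes there and 0.11 below them with TMM. Control mice moved this gap. Without control mouse 7 it was 0.04, with 37 ribosomal protein genes above 0 and 41 below, and without control mouse 6 it was 0.19, with 11 above and 67 below. With limma-voom the median was 0.03 for the ribosomal protein genes and 0.04 for all genes. The median standard error of a member was 0.17.

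The lowest values in OIR were those of large subunit genes. Rpl14 had log2 CPM values of 8.13, 8.005 and 8.23 in control and 7.92, 7.85 and 7.86 in OIR, a log2 fold change of -0.25 (SE 0.16; edgeR adjusted p = 0.375). Rpl28 had values of 7.96, 7.74 and 8.03 in control and 7.68, 7.58 and 7.66 in OIR, a log2 fold change of -0.27 (SE 0.17; edgeR adjusted p = 0.364). For both, every OIR mouse lay below every control mouse, yet neither passed the test. Rpl36 and Rpl8, a protein near the catalytic centre, were the only others without overlap in that direction, so that 4 of 78 genes were separated downward where 17.2% of all genes were, and 2 upward, Rpl3l and Rplp0, where 15.9% were. Rpl37, at -0.24 (SE 0.16), and Rpl24, at -0.24 (SE 0.49), overlapped between groups, and the value of Rpl24 was 0.42 without control mouse 1, whose 55 counts compare with 8 to 23 in all other mice.

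Rpl3l was the gene with the largest value in this comparison. It encodes the relative of Rpl3, a core protein of the large subunit, that replaces Rpl3 in heart and skeletal muscle. Control mice 1, 6 and 7 had 5, 0 and 4 counts, OIR mice 3, 5 and 6 had 9, 16 and 19, and OIR+32-134D mice 2, 5 and 10 had 11, 6 and 11. Every OIR and every treated mouse lay above every control mouse, all within 19 reads. The log2 fold change was 2.26 (SE 0.76; edgeR adjusted p = 0.126) in OIR and 1.90 (SE 0.78; edgeR adjusted p = 0.239) in OIR+32-134D against control, and limma-voom put the first at 3.71 with an adjusted p of 0.0204. Rpl3l passed the filter on low counts with all 3 groups in the fit. With the 2 groups of either comparison alone it did not pass, so its values rest on the filter as well as on few reads and are given as a description. Without control mouse 6, which had 0 reads, the values were 1.70 and 1.34. At 0.280 RPKM against 175 for Rpl3, it stood for a minute share of the pair. Its locus, ENSMUSG00000002500, lies on the plus strand of GRCm38 at chr17:24727820-24736143, and it shared no 50-base stretch with any other annotated transcript.

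The next highest values in OIR included small subunit genes, and OIR mouse 5 was high for several. Rps27a, which encodes a fusion of ubiquitin with a small subunit protein, had log2 CPM values of 6.70, 7.06 and 7.48 in control, 7.29, 7.88 and 6.77 in OIR, and 7.09, 6.74 and 6.39 in treated mice, in the order of mice given above. OIR mouse 5 was the highest and treated mouse 10 the lowest of the 9, and the groups overlapped. The log2 fold change in OIR against control was 0.27 (SE 0.30; edgeR adjusted p = 0.626), and without OIR mouse 5 it was -0.06. The same mouse had 2730 counts of Rpl7a, a large subunit protein, against 1079 to 1882 in all other mice, and 116 counts of Rps10 against 41 to 100. Rps27l, the p53-induced relative of Rps27, stood at 4.14 ± 0.31 in control, 4.47 ± 0.17 in OIR and 4.32 ± 0.42 in treated mice (SD, n = 3), a log2 fold change of 0.32 (SE 0.24; edgeR adjusted p = 0.443) in OIR, which was 0.17 without control mouse 6.

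The second comparison set OIR+32-134D mice against control mice. Again 0 of 78 genes passed an adjusted p of 0.05 by edgeR, where 0.0228% of all genes did and 0.0171% did with a change above 1 on the log2 scale, and 1 passed by DESeq2, where 4.8% of all genes did, and by limma-voom, where 5.28% did. That gene was Rpl13a in both. At an unadjusted p below 0.05, edgeR gave Rpl3l and Rpl17 higher and Rpl13a lower, 3 of 78, where 18.6% of all genes passed. The median log2 fold change was 0.05, against 0.01 for all genes, with 52 genes above 0 and 26 below where 51.4% of all genes lay above 0, and with total counts alone the split was 39 and 39. Without OIR+32-134D mouse 2 the median was -0.14, against -0.01 for all genes, with 10 genes above 0 and 68 below, and without OIR+32-134D mouse 10 it was 0.18, with 73 above and 5 below. Without control mouse 6 it was -0.05, with 29 above and 49 below. The direction of the whole set in this comparison thus turned with single mice of either group, and by edgeR no gene passed the adjusted p without any of these 3 mice. Without mouse 2, Rpl13a, Rpl14, Rpl23 and Rpl28 passed the unadjusted p on the lower side, 4 of 78 where 6.98% of all genes did.

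Rpl13a, a large subunit protein known also for a role in translational silencing of inflammatory messages, had the lowest fold change of the set in this comparison. Control mice 1, 6 and 7 had a log2 CPM of 4.38, 4.31 and 4.08, OIR mice 3, 5 and 6 had 3.88, 4.06 and 4.14, and treated mice 2, 5 and 10 had 3.93, 3.50 and 3.71. Every treated mouse lay below every control mouse, in the opposite direction from the shared shift in mouse 2, and OIR mice lay between, overlapping both. Rpl13a was the only 1 of 78 genes separated downward from control, where 12.2% of all genes were. Upward, Rpl3l was the only 1, where 12.8% of all genes were. The log2 fold change was -0.54 against control (SE 0.16; edgeR adjusted p = 0.167), -0.23 for OIR against control (SE 0.16; edgeR adjusted p = 0.405) and -0.31 for treated against untreated OIR (SE 0.16; edgeR adjusted p = 0.9998). Over the settings that left no mouse out, the first value ranged from -0.70 to -0.54, with an adjusted p of 0.0416 by DESeq2, 0.0251 by limma-voom and no lower than 0.139 under any edgeR setting. Rpl13a (ENSMUSG00000074129, chr7:45125558-45128761, minus strand, GRCm38) holds 4 annotated small nucleolar RNA genes in its introns, and its exons are those that Gm45713 covers in part, and it had 183 to 594 counts per mouse.

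The remaining large values against control were Rplp0 and Rpl39 above 0 and Rpl24, Rps27a and Rps9 below. Rplp0, the scaffold of the stalk, had log2 CPM values of 8.93, 8.62 and 8.90 in control, 8.95, 8.94 and 9.20 in OIR, and 9.67, 9.01 and 8.82 in treated mice, the highest being mouse 2. The log2 fold change was 0.22 (SE 0.21; edgeR adjusted p = 0.580) in OIR and 0.39 (SE 0.21; edgeR adjusted p = 0.349) in treated mice. The former was 0.12 without control mouse 6 and the latter 0.11 without mouse 2. Rpl39, a small protein that lines the exit tunnel, stood at 0.34 (SE 0.23), and at 0.03 without mouse 2. Rps27a stood at -0.35 (SE 0.30), Rpl24 at -0.50 (SE 0.50) and Rps9, which sits at the entry of the message channel, at -0.12 (SE 0.15), and none of these passed the test. Single mice moved all of them. Rps27a was at -0.53 without OIR+32-134D mouse 2 and -0.12 without control mouse 7, Rpl24 at -0.79 without control mouse 7 and 0.16 without control mouse 1, and Rps9 at -0.23 without OIR+32-134D mouse 2 and 0.005 without mouse 10.

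**Figure D3:**
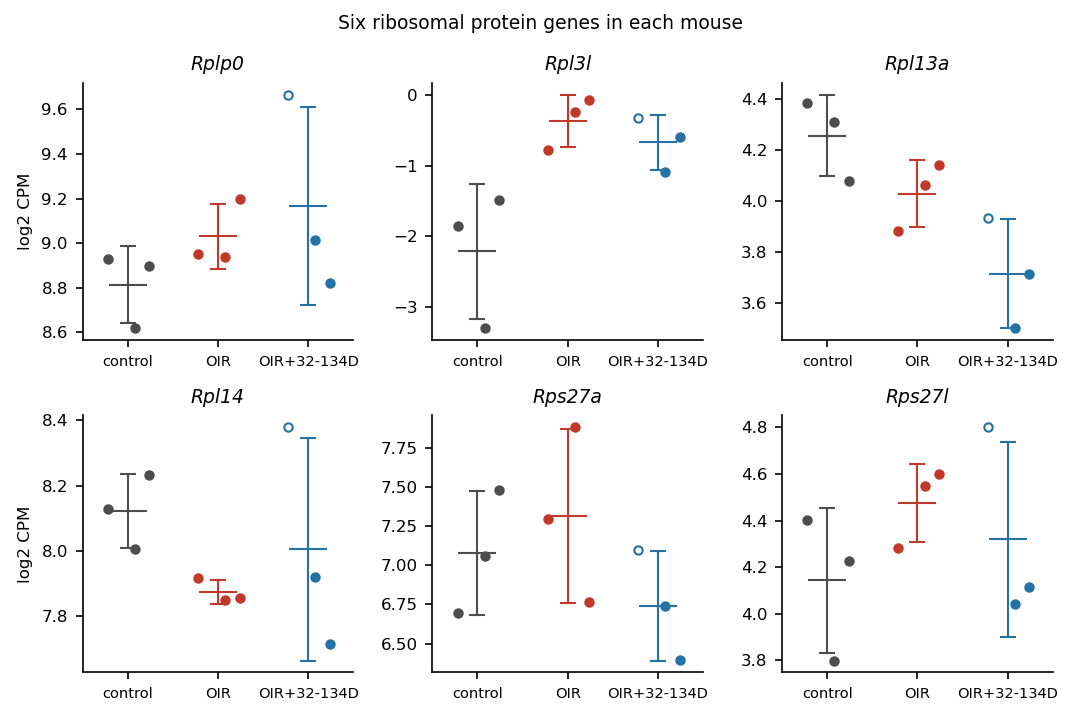
Log2 CPM of 6 ribosomal protein genes in each mouse, with group means as horizontal bars and SD as whiskers (n = 3); the open circle is OIR+32-134D mouse 2. Rpl3l lies higher in every OIR and treated mouse than in any control mouse, Rpl13a lies lower in every treated mouse than in any control mouse, OIR mice lie below control mice for Rpl14 and above them for Rplp0, and Rps27a and Rps27l overlap between groups.

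The third comparison, of treated with untreated OIR mice, asked whether the inhibitor moved these genes. By edgeR, 0 of 78 passed an adjusted p of 0.05, as did 0.0% of all genes; DESeq2 called 0 of them and 0.177% of all genes, and limma-voom 0 and 0.0057%. At an unadjusted p below 0.05 only Rpl17 passed, on the higher side, 1 of 78 where 4.69% of all genes did, 2.39% higher and 2.3% lower, and no gene was without overlap in either direction, where 3.74% of all genes were separated upward and 5.39% downward. The median log2 fold change was 0.11 against 0.01 for all genes, with 67 genes above 0, where 51.3% of all genes were, and 11 below, among the latter Rpl13a, Rps27a, Rps10 and Rpl3l. With total counts alone the median was -0.01 with 35 above 0 and 43 below, against -0.09 for all genes. Without OIR+32-134D mouse 2 the median was -0.04, with 22 above 0 and 56 below, and without mouse 10 it was 0.24, with 71 above and 7 below. OIR mice differed from each other by 0.07 on average over these genes and treated mice by 0.61, so the median of this comparison was smaller than the spread among treated mice. This comparison and the first share the OIR mice, and the first 2 share the control mice.

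**Figure D4:**
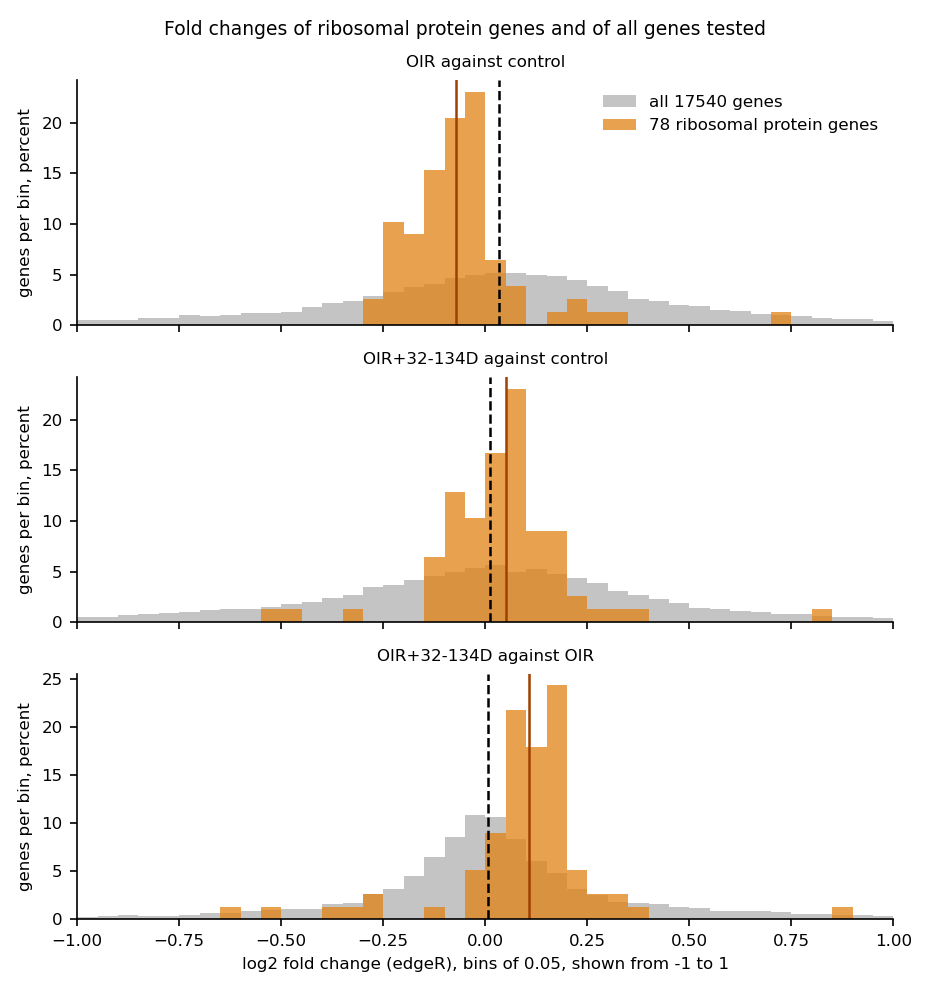
Share of genes in bins of 0.05 of the log2 fold change, in orange for the 78 ribosomal protein genes and in grey for all 17540 genes tested, with 1 panel for each comparison and the medians as a solid and a dashed line. The ribosomal protein genes form narrow peaks around medians of -0.07, 0.05 and 0.11, and values beyond 1 in either direction, among them Rpl3l in the first 2 comparisons, are not drawn.

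In this comparison Rps27a had the lowest value at -0.62 (SE 0.30; edgeR adjusted p = 0.9998), which was -0.29 without OIR mouse 5, followed by Rps10 at -0.54 (SE 0.36), Rpl3l at -0.35 (SE 0.67) and Rpl13a at -0.31. Rps10 was at -0.27 without OIR mouse 5 and -0.83 without OIR mouse 3, and Rpl3l at -0.55 without OIR mouse 3 and -0.14 without OIR+32-134D mouse 5. On the other side, Rpl17 stood at 0.85, Rpl21 at 0.40 (SE 0.23), Rpl39 at 0.34 (SE 0.23) and Rpl35, which lies at the tunnel exit, at 0.31 (SE 0.20). Without OIR+32-134D mouse 2, Rpl39 was at 0.05 and Rpl35 at 0.07, and Rpl21 was at 0.26 without mouse 10. None passed an adjusted p of 0.05.

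Rpl17, a tunnel protein of the large subunit, had the highest fold change of the set in treated against untreated OIR mice, and its counts have to be read beside those of its copies. Control mice 1, 6 and 7 had 1433, 850 and 810 counts, OIR mice 3, 5 and 6 had 1015, 832 and 1041, and treated mice 2, 5 and 10 had 2083, 1323 and 764. In CPM, treated mice 2 and 5 lay above the OIR mice, and treated mouse 10 lay among them. The log2 fold change was 0.81 against control (SE 0.35; edgeR adjusted p = 0.265) and 0.85 against OIR (SE 0.35; edgeR adjusted p = 0.9998), and 0.33 and 0.40 without mouse 2. Its 11 annotated copies of the same name, Rpl17-ps10 foremost, held 78.5% of the counts of gene and named copies together. This share was 62.0% and 70.2% in treated mice 2 and 5 and 79.1% to 83.6% in the other 7 mice. The copies themselves summed to 216 CPM in treated mouse 2 and 191 CPM in mouse 5, within the 187 to 265 CPM of the other mice, with Rpl17-ps10 at 101 and 104 CPM in these mice and 114 to 154 CPM elsewhere. With gene and named copies summed, the log2 fold change was 0.07 against control and 0.16 against OIR. Copies under other names were left out, and 51 other genes, named copies among them, shared a 50-base stretch with Rpl17. Whether the treated retinas held more Rpl17 message or more of it was assigned to the gene was not tested.

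Rps10 stood in the same position with fewer counts. It had 62, 44 and 47 counts in control mice, 41, 116 and 100 in OIR mice, and 50, 50 and 41 in treated mice. Its named copies held 95.8% of the counts of gene and named copies, and Rps10-ps2 alone had 11854 over the 9 mice. The log2 fold change of the gene was 0.72 in OIR against control (SE 0.36; edgeR adjusted p = 0.264) and 0.45 without OIR mouse 5, and that of gene and copies summed was -0.09. For Rpl21 the named copies held 48.8% of such counts, and the summed change in treated against untreated OIR mice was 0.26 in place of 0.40.

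**Figure D5:**
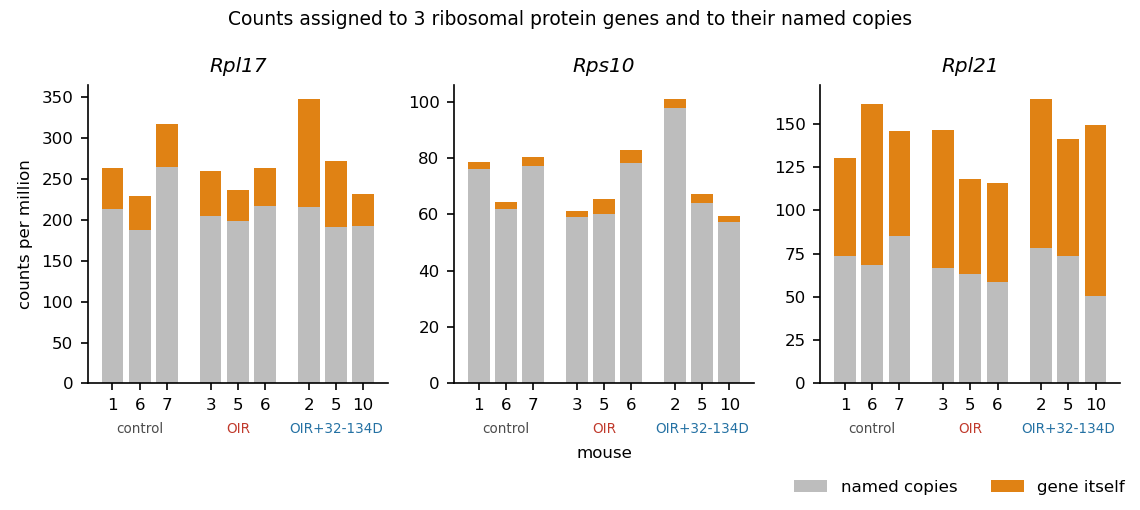
CPM in each mouse for Rpl17, Rps10 and Rpl21, stacked from the named copies in grey and the gene itself in orange. The orange part of Rpl17 is largest in OIR+32-134D mice 2 and 5 at 132 and 81.1 CPM, that of Rps10 never passes 5.41 CPM, and for Rpl17 the total runs from 229 to 348 CPM and the orange part from 38.8 to 132 CPM.

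Over the whole family, 295 annotated copies carried the name of 59 of the 81 genes. They held 4.47% of the counts of genes and copies together, 70 passed the filter on low counts, and 124 had 0 counts in all mice. Copies under other names were not counted. In 11 families copies held over 10% of counts, led by Rps10, Rpl17, Rpl21, Rps12 at 34.8% and Rpl7a at 19.5%. By sequence, 77 of the 80 genes with counts, all but Rpl10l, shared at least one 50-base stretch with another gene, 39 shared over 50% of their stretches, and the median was 49.2%. Rps27 shared 98.6% with Rps27rt, and Rpl3l shared none. Rpl7a shared a stretch with 120 other genes but had 12 named copies. Spearman's rho of the shared percentage was 0.05 with the mean RPKM over the 80 genes and -0.08 with the SD around the shared shift over the 78 tested genes. These are descriptions across genes, which are not independent. Summing members with their copies left the median log2 fold changes at -0.08, 0.05 and 0.11 in the 3 comparisons.

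None of the well-studied core genes passed an unadjusted p of 0.05 in any comparison. Rpl5 and Rpl11, which bind the p53 regulator Mdm2 when ribosome assembly fails, had log2 fold changes of 0.04 (SE 0.16) and -0.11 (SE 0.18) in OIR against control and 0.17 and 0.18 in treated against untreated OIR. Rpl10, which is placed late in assembly, stood at -0.07 (SE 0.25) and 0.15, Rpl38, known for its part in patterning of the skeleton, at -0.10 (SE 0.19) and 0.20, and Rpl41 at -0.02 (SE 0.24) and 0.21. Rpsa, also known as the laminin receptor, stood at -0.14 (SE 0.19) and 0.19, Rps4x, the X-linked small subunit protein, at 0.08 (SE 0.14) and 0.03, Rps6 at -0.06 (SE 0.15) and 0.12, Rplp1 at -0.15 (SE 0.17) and 0.11 and Rplp2 at -0.03 (SE 0.20) and 0.15. All 10 lay within 0.21 in either direction. In treated against untreated OIR mice without OIR+32-134D mouse 2, the values were 0.01 for Rpl5, -0.01 for Rpl11, -0.22 for Rpl10, -0.02 for Rpl38 and -0.12 for Rpl41, and they lay between -0.10 for Rplp2 and 0.002 for Rps6 among the other 5. The values of these genes above 0 in that comparison thus rested on mouse 2. Of the genes mutated in Diamond-Blackfan anaemia, a failure of red cell production, the 9 that were listed had a median of -0.01 in OIR and 0.11 in treated against untreated OIR, or -0.08 without mouse 2, with none past an unadjusted p of 0.05.

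Of the relatives of other members, Rpl10l, Rpl39l and Rpl36al did not pass the filter on low counts. Rpl10l, the testis relative of Rpl10, had 0 counts in all 9 mice. Rpl39l, the germline relative of Rpl39, had 5, 10 and 0 counts in control mice 1, 6 and 7 and 0 to 2 in all others. Rpl36al had 2 to 13 counts in every mouse, but Gm49383 covers part of its exons, so its level is uncertain. Rps4l, annotated in the table as a transcribed pseudogene and so no member, had a log2 fold change of -0.51 in OIR (SE 0.11; edgeR adjusted p = 0.0576) and -0.37 in treated mice (SE 0.11; edgeR adjusted p = 0.154) against control. It was called in OIR by DESeq2 and limma-voom and in treated mice by limma-voom. Rpl22l1, the relative of Rpl22 that the name rule leaves out, stood at -0.48 (SE 0.14; edgeR adjusted p = 0.0963) in OIR and was called there by DESeq2.

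The neighbouring genes of the pathway were taken from 15 lists, some of which share genes, and hold 187 tested genes that are no members. By edgeR, 0 of the 187 passed an adjusted p of 0.05 in any comparison. At an unadjusted p below 0.05, 7 were higher and 31 lower in OIR against control, 9 higher and 20 lower in treated mice against control, and 0 higher and 1 lower in treated against untreated OIR. Among all genes, 11.1% were higher and 12.7% lower in the first of these comparisons, or 23.8% in either direction. The shares were 10% and 8.6% in the second, or 18.6%, and 2.39% and 2.3% in the third, or 4.69%. DESeq2 called 4 higher and 11 lower, 0 and 8, and 0 and 0, or 8.02%, 4.28% and 0.0% of the listed genes where 11.3%, 4.8% and 0.177% of all genes were called. Limma-voom called 5 and 6, 3 and 7, and 0 and 0, or 5.88%, 5.35% and 0.0% where 13.1%, 5.28% and 0.0057% of all genes were called. Of the 77 tested mitochondrial ribosomal protein genes, 18 were lower in OIR at an unadjusted p below 0.05 and 0 higher, where 12.7% of all genes were lower and 11.1% higher, and their median was -0.17 on the log2 scale with 62 below 0. In treated mice against control the numbers were 15 and 0 with a median of -0.15, where 8.6% of all genes were lower and 10% higher, and the medians were -0.19 and -0.19 without OIR+32-134D mouse 2. Mrpl27, at -0.41 in OIR and -0.45 in treated mice, was called by both DESeq2 and limma-voom in both comparisons. The median of the cytosolic genes in treated mice against control turned from 0.05 to -0.14 without mouse 2, and that of the mitochondrial genes kept its sign. For the mitochondrial genes no other mouse was left out here, and the controls differed. Relative to their own means, these genes lay at 0.115, -0.011 and 0.205 in control mice 1, 6 and 7. They lay at -0.065, -0.091 and 0.017 in OIR mice 3, 5 and 6, and at 0.042, -0.067 and -0.146 in treated mice 2, 5 and 10.

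Among the factors that act on these genes and messages, Larp1, which binds the TOP tract, stood at -0.25 (SE 0.07; edgeR adjusted p = 0.0946) and Rheb, the activator of mTOR, at -0.32 (SE 0.09; edgeR adjusted p = 0.0939) in OIR. Gabpa, a factor that binds CCGGAAGT, stood at 0.45 (SE 0.12; edgeR adjusted p = 0.0867) and Sp1 at 0.53 (SE 0.13; edgeR adjusted p = 0.0700). All 4 were called by DESeq2 and by limma-voom in this comparison, and they were the only genes of their lists that either tool called there. At an unadjusted p below 0.05 by edgeR, the list of mTOR and TOP regulators had 1 of 15 genes higher and 3 lower. Its median was -0.06, with 6 genes above 0 and 9 below. The list of transcription factors had 2 of 6 higher and 0 lower, where 11.1% of all genes were higher and 12.7% lower. Eef1a2, the elongation factor form of neurons and muscle, stood at -1.03 (SE 0.21; edgeR adjusted p = 0.0576) and was called by DESeq2 and limma-voom in OIR and in treated mice against control, while Eef1a1, the widespread form, did not pass an unadjusted p of 0.05. Ganglion and amacrine cell markers differed alongside. In control mice the 4 ganglion markers summed to 579 to 823 CPM, against 59.2 to 250.1 CPM among OIR mice and 26.0 to 458 CPM among treated mice, and the 3 amacrine markers to 495 to 685, 164 to 328 and 119 to 504 CPM. Their part in these values was not tested. Of the p53 targets, Mdm2 stood at 0.37 (SE 0.10; edgeR adjusted p = 0.0900) and Trp53inp1 at 0.51 (SE 0.10; edgeR adjusted p = 0.0539) in OIR, and 2 of 10 were higher and 0 lower at an unadjusted p below 0.05, where 11.1% of all genes were higher and 12.7% lower. Against the same shares of all genes, RNA polymerase I subunits and factors had 0 of 10 genes past that p in OIR, ribosome biogenesis factors 1 of 16 higher, Nop58, and 2 lower, Nop56 and Wdr12, and initiation factors 3 of 28 lower, among them Eif4a2 at -0.37 (SE 0.11; edgeR adjusted p = 0.107). Mdm2, Trp53inp1 and Eif4a2 were called by DESeq2 and limma-voom in OIR.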

How the data were processed

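The authors deposited 1 table of whole-number read counts per gene, without normalization, for 54532 genes with gene lengths, and 9 columns matching the 9 mice. CASAVA and HISAT are named in the submitters' processing notes, without versions; the counting tool, its strand setting and its treatment of multiply mapped reads are not given in the sources used here. Of the genes, 54495 were found in GENCODE M21, and 79 of 81 members had identical positions there, so coordinates are on GRCm38.

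Counts were fitted with edgeR 4.0.16 (R 4.3.3) using TMM factors, the default filter by group, 1 mean per group over all 9 mice and the quasi-likelihood test, with Benjamini-Hochberg adjustment over 17540 genes at 0.05. CPM uses the TMM-scaled library size, log2 CPM a prior count of 2, and RPKM divides CPM by the deposited gene length. The standard error is that implied by the test statistic. The code was tested on simulated data. Alternatives were DESeq2 1.42.0, limma 3.58.1 (voom with quality weights), other scalings and filters, crystallin genes removed, 2 groups at a time, and each mouse left out; summing members with their named copies was added after seeing the data. Each mouse is 1 replicate. The edgeR p-values set the difference between group means against 1 spread per gene, shared by the 3 groups and moderated over genes.

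The members, gene lists and comparisons were chosen with earlier results of these data known. Members named are the 4 highest and 4 lowest fold changes of each comparison, the 3 highest and 3 lowest levels, those that did not pass the filter, and a list of stalk genes, relatives and well-studied members. Rpl3, Rpl7a, Rpl8, Rpl19, Rpl23, Rps12 and Rps27, and the listed neighbours given by name, were named after their values were seen. Values of 1 small subunit gene are not reported here by name. Sequences are from RefSeq on GRCm38.p6 and shared stretches from GENCODE M21 transcripts.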

Additional observations from a re-analysis of the deposited data

How the results depend on the processing

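The number of ribosomal protein genes past an adjusted p of 0.05 was 0 in every comparison by edgeR under all scalings, filters and groupings and with each mouse left out, so its range over left-out mice was 0 to 0. It was 1 with limma-voom in OIR against control, and 1 with DESeq2 and 1 with limma-voom in OIR+32-134D against control. These were Rpl3l, at 3.71 with limma-voom, and Rpl13a, at -0.56 with DESeq2 and -0.70 with limma-voom. Rpl3l did not pass the filter on low counts with OIR and control mice alone. The median log2 fold change ranged over left-out mice from -0.16 to -0.01, from -0.14 to 0.18 and from -0.04 to 0.24 in the 3 comparisons, and the difference in share of counts from -0.0991 to 0.0801, -0.107 to 0.100 and -0.0911 to 0.0990 percentage points. With limma-voom the first median was 0.03. Of 26 named fold changes, 253 values under other settings with no mouse left out gave 247 on the same side and direction. Rpl24 was at 0.052 in OIR with limma-voom, and Rps10 at -0.086 in OIR and 0.116 in treated against untreated OIR when summed with its copies, which hold most of the counts. With a mouse left out, values changed sign for Rpl24, which ranged from -0.53 to 0.423 in OIR and from -0.793 to 0.161 in treated mice against control (above 0 without control mouse 1), for Rps27a, from -0.06 to 0.503 in OIR (below 0 without OIR mouse 5), for Rps27l, from -0.081 to 0.334 against control (below 0 without OIR+32-134D mouse 2) and from -0.376 to 0.014 against OIR (above 0 without OIR+32-134D mouse 5), and for Rps9, from -0.232 to 0.005 against control (above 0 without OIR+32-134D mouse 10). The cause was not tested for these. No paired analysis was possible because the replicate numbers are those of separate animals and the groups share fewer than 2 of them. With 3 mice a group and a median standard error of 0.17 on the log2 scale, changes of the size seen in most members were not detectable.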
